A study of Macaca mulatta with 10 samples.

Results

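The genes examined encode the machinery of excitation-contraction coupling, by which an action potential in a skeletal muscle fiber releases calcium from the sarcoplasmic reticulum. They were chosen by name, as 10 genes of the voltage-sensing channel, the release channel and the proteins that hold and buffer calcium at their junction, and 8 of the 10 were found among the 28595 genes measured. *CASQ1*, the main calsequestrin of fast fibers, and *JPH1*, which tethers the junctional membranes, were not matched to a row of the files and are not analysed here.

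In skeletal muscle the L-type channel in the transverse tubule serves mainly as a voltage sensor. It is coupled mechanically to the ryanodine receptor of the adjoining sarcoplasmic reticulum, which opens and lets calcium out to the contractile proteins. Triadin and related junctional proteins link the release channel to calsequestrin, the calcium store inside the reticulum, and pumps and exchangers then clear the calcium.

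RNA-Seq of skeletal muscle and of adipose tissue was available from 5 male rhesus monkeys, with 1 library for each animal and tissue. Animal rhesus_950807 was hyperinsulinemic and, per the study, carried a heterozygous nonsense mutation of *PRKD2*, and rhesus_920401, rhesus_940129, rhesus_940313 and rhesus_950509 were control animals. The labels give neither ages nor the muscle sampled, and 1 hyperinsulinemic animal stands for its group, so that its mutation, its insulin level and any other trait of that animal cannot be told apart. The question asked here is whether the coupling genes of this animal's muscle differ from those of the controls, and how they are divided between the tissues. In such bulk samples fewer cells of a type and less RNA per cell cannot be told apart.

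The muscle library of rhesus_950807 held 33961486 mapped reads and those of the controls held 35682861 to 43268985. The adipose library of rhesus_950807 held 41780234 and those of the controls held 30669915 to 39379286. *PRKD2* was at 0.387 RPKM in the muscle of rhesus_950807, against 1.14 to 1.79 RPKM in control muscle, and at 3.66 RPKM in its adipose tissue, against 3.27 to 6.12 RPKM. RPKM is the number of reads per kilobase of transcript, scaled to the mapped reads of the library, so that levels can be compared between genes. Myofiber markers marked the muscle libraries, with *ACTA1*, skeletal muscle actin, at 34057 RPKM in rhesus_950807 and 24384 to 31634 RPKM in the controls. In adipose tissue *ADIPOQ*, the adipokine adiponectin, was at 726 RPKM in rhesus_950807 and 631 to 1491 RPKM in the controls. The adipose libraries of rhesus_920401 and rhesus_940313 stood apart, since *ACTA1* reached 101 and 80.9 RPKM in them, against 1.72 RPKM in rhesus_950807 and 1.18 and 0.444 RPKM in the other controls. The members' tissue differences, and the values of other genes that moved most, are therefore also given without these libraries.

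Most of the coupling genes were among the more abundant mRNAs of muscle. By the mean RPKM of the 4 control muscles, *RYR1* ranked 116 among 28595 genes, *CACNB1* 317, *JSRP1* 324, *CACNG1* 340, *TRDN* 439 and *CACNA1S* 632. *SLC8A3* and *CASQ2* ranked far lower, at 5218 and 6263. *RYR1* lay above *CACNB1* in each of the 4 controls with no overlap of their ranges, and *CACNA1S* lay above *SLC8A3* in the same way. The row named *RYR1* is a short gene model, and the rank of *RYR1* holds for that row only. Unnamed models on its strand had control means of 86.1 and 136 RPKM before it and 603 RPKM after it, against 118 RPKM for *CACNB1*. Whether they are parts of *RYR1* was not tested. Each neighboring pair from *CACNB1* down to *CACNA1S* overlapped in range, as did *SLC8A3* and *CASQ2*. Farther apart, *JSRP1* (91.8 to 149 RPKM) and *CACNG1* (88.2 to 138 RPKM) lay wholly above *CACNA1S* (38.6 to 80.9 RPKM). The plot of levels by library shows this order, and the far lower levels in adipose tissue.

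**Figure D1:**
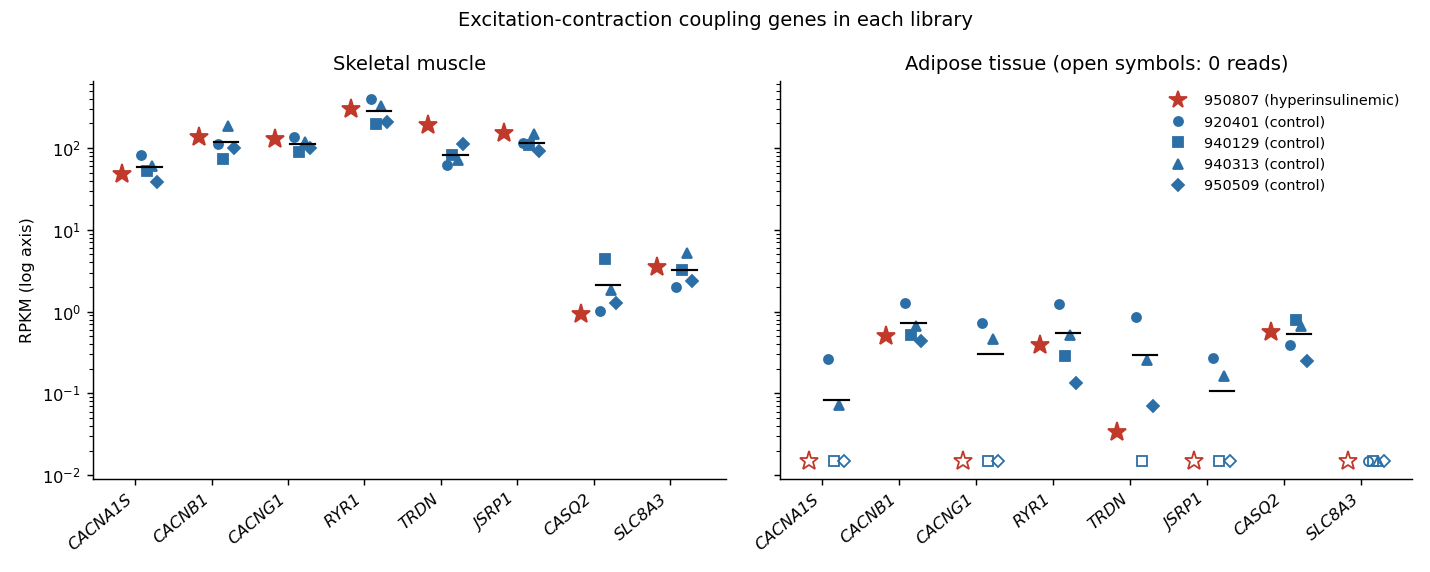
RPKM of the 8 coupling genes in each library on a log axis, skeletal muscle on the left and adipose tissue on the right, with rhesus_950807 as a star, each control with its own symbol, the control mean as a bar and libraries without reads as open symbols at the base. In muscle only *TRDN* of rhesus_950807 stands clearly above the controls (192 against 62.3 to 111 RPKM), and in adipose tissue all control means lie under 1 RPKM.

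*CACNA1S*, the pore-forming subunit of the voltage sensor, is read from chromosome 1 between 169397483 and 169444886. Its level was 48.6 RPKM in the muscle of rhesus_950807, against 80.9, 51.9, 59.9 and 38.6 RPKM in rhesus_920401, rhesus_940129, rhesus_940313 and rhesus_950509. The animal lay inside the control range, and the fitted log2 difference was -0.42 (SE 0.37, 95% interval -1.24 to 0.40, edgeR adjusted p = 0.764). An unnamed gene model just downstream on the same strand (chromosome 1, 169453691 to 169454151) had 39.7 RPKM in rhesus_950807 and 32.3 to 52.8 RPKM in control muscle.

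*CACNB1* encodes the beta subunit that brings the channel to the membrane, and lies on chromosome 16 between 49247165 and 49272237. It was at 137 RPKM in the muscle of rhesus_950807, against 113, 72.4, 186 and 99.1 RPKM in the controls in the same order, again inside their range. Its log2 difference of 0.06 (SE 0.42, 95% interval -0.88 to 1.0, edgeR adjusted p = 0.980) was smaller than the spread between control animals. It overlaps an unnamed gene on the opposite strand with reads in muscle. The libraries were strand-specific, but whether counting used the strand is not stated, so reads of these neighbors may not be fully separated.

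*CACNG1* encodes the gamma subunit of the muscle channel (chromosome 16, 62404055 to 62415819). It was at 130 RPKM in rhesus_950807 and at 138, 88.2, 118 and 98.5 RPKM in the controls. It was the steadiest member among the controls, whose highest value was 1.56 times the lowest. The log2 difference was 0.06 (SE 0.29, 95% interval -0.59 to 0.72, edgeR adjusted p = 0.966).

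*RYR1*, the calcium release channel, had the highest RPKM of the members in all 5 muscle libraries, by the row that carries its name. Its row is a short gene model (chromosome 19, 44850453 to 44886910, longest transcript 3071 bases). The level was 298 RPKM in rhesus_950807, against 395, 196, 329 and 208 RPKM in rhesus_920401, rhesus_940129, rhesus_940313 and rhesus_950509. The log2 difference was -0.09 (SE 0.39, 95% interval -0.97 to 0.79, edgeR adjusted p = 0.966). Unnamed gene models lie on the same strand on either side of this row, and whether they are parts of *RYR1* was not tested. The 3 of them with more than 1 RPKM in muscle had 76.1, 137 and 675 RPKM in rhesus_950807, against control means of 86.1 ± 25.9, 136 ± 42.6 and 603 ± 179 RPKM (SD, n = 4). Their log2 differences were -0.35, -0.16 and -0.01, with edgeR adjusted p of 0.816 to 0.998, so none of these flanking models was called either.

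*TRDN* encodes triadin, which anchors calsequestrin to the release channel (chromosome 4, 140381078 to 140725250). It had 192 RPKM in the muscle of rhesus_950807, against 62.3, 82.2, 72.2 and 111 RPKM in rhesus_920401, rhesus_940129, rhesus_940313 and rhesus_950509. The animal lay above all 4 controls, at 2.34 times their mean of 81.9 ± 21.0 RPKM (SD, n = 4). The log2 difference of 1.04 (SE 0.33, 95% interval 0.30 to 1.79) had an unadjusted p of 0.0113 and an edgeR adjusted p of 0.482 over the 8306 genes tested, and so did not pass the threshold of 0.05. Leaving out each control in turn gave 0.91 to 1.27, and the adjusted p ranged from 0.158 to 0.872 over the alternatives, the lowest with DESeq2.

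The same *TRDN* value was then set against its partners in that library. The ratio of *TRDN* to *RYR1* was 0.643 in rhesus_950807, against 0.158 to 0.533 in the controls. The ratio to *CACNA1S* was 3.94, against 0.770 to 2.88, and that to *JSRP1* was 1.24, against 0.485 to 1.21. Each ratio was the highest of the 5 animals, that to *JSRP1* only narrowly. These ratios share the *TRDN* value given above, so they are not separate observations, and they were not tested. By RPKM 50.1% of all genes tested lay outside the control range in this library. Among them *CHRNA1*, the alpha subunit of the muscle acetylcholine receptor, was above all controls. It was at 23.3 RPKM, against 3.81, 5.79, 6.70 and 2.52 RPKM (log2 difference 2.16, SE 0.40, edgeR adjusted p = 0.282). It belongs to a list of 13 genes linked to denervation, of which 9 were found by name and 5 were tested in muscle. Of these 5, 4 were positive, none was called and the median was 0.75. The summed RPKM of that list was 65.4 in rhesus_950807, against 29.0 to 51.5 in the controls. This sum includes the 23.3 RPKM of *CHRNA1*, so it is not an observation separate from that gene. Without *CHRNA1* the sum of rhesus_950807 lay inside the control range, under that of rhesus_940313. The part of the list in the *TRDN* value was not tested.

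*JSRP1* encodes JP-45, a junctional protein that binds both calsequestrin and the voltage sensor (chromosome 19, 2054628 to 2057418). It was at 154 RPKM in rhesus_950807 and at 116, 107, 149 and 91.8 RPKM in the controls. The value exceeded that of rhesus_940313 only slightly and fell inside the control range once libraries were scaled by TMM, the normalization that edgeR uses. The log2 difference was 0.24 (SE 0.27, 95% interval -0.37 to 0.86, edgeR adjusted p = 0.832).

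*SLC8A3* encodes NCX3, a sodium-calcium exchanger of skeletal muscle and brain that removes calcium across the plasma membrane (chromosome 7, 133171994 to 133313096). It was at 3.51 RPKM in rhesus_950807 and at 2.02, 3.20, 5.22 and 2.38 RPKM in the controls. The log2 difference was -0.03 (SE 0.45, 95% interval -1.04 to 0.99, edgeR adjusted p = 0.992), and the animal lay within the control range.

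*CASQ2* encodes the calsequestrin of heart and slow fibers (chromosome 1, 118681387 to 118751602). It was at 0.934 RPKM in rhesus_950807, against 1.03, 4.4, 1.85 and 1.27 RPKM in rhesus_920401, rhesus_940129, rhesus_940313 and rhesus_950509, which rests on 94 reads in rhesus_950807 and 118 to 465 reads in the controls. The animal had the lowest value, only slightly under rhesus_920401, while rhesus_940129 was far above the others. The log2 difference was -1.35 (SE 0.78, 95% interval -3.10 to 0.40, edgeR adjusted p = 0.645). Leaving out rhesus_940129 moved it to -0.74, and leaving out rhesus_920401 to -1.60.

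Over the 8 members tested in muscle, none was called with edgeR, where 0% of the 8306 genes tested were called, and 1 member, *TRDN*, had an unadjusted p under 0.05, against 754 of all genes. No member was called by DESeq2, which called 88 genes, or by either limma fit, which called 1 gene each. The median log2 difference of the members was 0.02, and that of all genes tested was -0.03. By RPKM rhesus_950807 lay outside the range of the 4 controls for 3 of the 8, *TRDN* and *JSRP1* above and *CASQ2* below, where 50.1% of all genes did so. With TMM-scaled reads it did so for 2 of the 8, *TRDN* and *CASQ2*, against 48.0% of all genes. The members' share was thus not above that of genes at large. The plot of fitted differences shows that the intervals of 7 members include 0, and that with 1 animal against 4 the intervals span up to several log2 units.

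**Figure D2:**
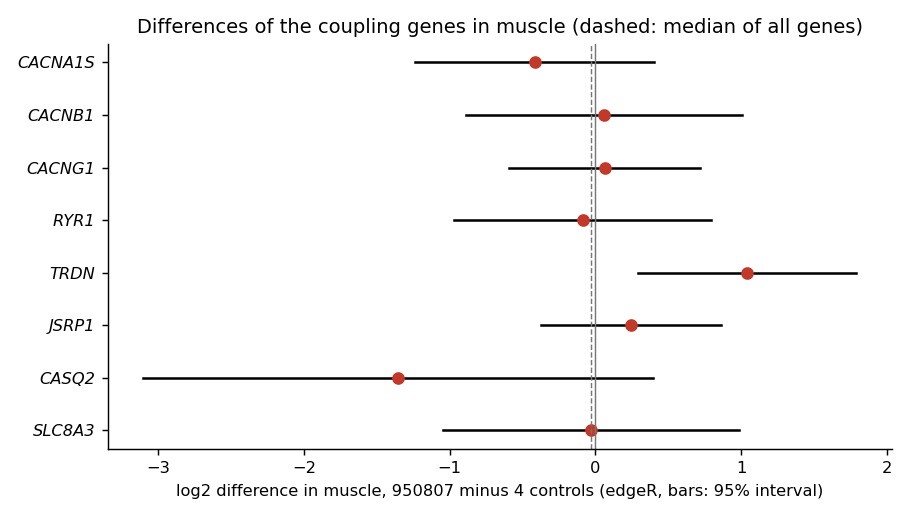
Log2 difference in muscle between rhesus_950807 and the 4 controls for each coupling gene, with its 95% interval from edgeR, a solid line at 0 and a dashed line at the median of all genes tested (-0.03). Only the interval of *TRDN* (0.30 to 1.79) lies wholly on one side of 0, before adjustment over all genes, and that of *CASQ2* is the widest.

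No single control animal had the highest level of all members. Animal rhesus_920401 had the highest RPKM of *CACNA1S*, *CACNG1* and *RYR1* and the lowest of *TRDN*, *CASQ2* and *SLC8A3*. Animal rhesus_940313 had the highest *CACNB1*, *JSRP1* and *SLC8A3*, rhesus_950509 the highest *TRDN* and rhesus_940129 the highest *CASQ2*. The highest control value was 1.56 to 2.59 times the lowest in every member except *CASQ2*, where it was 4.27 times. The ratio of *RYR1* to *CACNA1S* was 6.14 in rhesus_950807, above the 3.77 to 5.49 of the controls. The ratios of *JSRP1* (3.17, against 1.44 to 2.49) and *CACNG1* (2.68, against 1.70 to 2.55) to *CACNA1S* were also above all controls. That of *CACNB1* was not (2.83, against 1.39 to 3.11). These ratios share the *CACNA1S* value as their denominator, so they are not separate observations, and they were not tested.

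*CASQ2* was read beside the contractile isoforms of slow fibers, which differed far more between the animals. *MYH7*, the slow myosin heavy chain, was at 12.9 RPKM in rhesus_950807, against 80.1, 531, 45.5 and 72.0 RPKM in rhesus_920401, rhesus_940129, rhesus_940313 and rhesus_950509. *MYL3*, a slow myosin light chain, was at 10.2 RPKM in rhesus_950807, against 76.0, 648, 55.1 and 105 RPKM. *ATP2A2*, the calcium pump of slow fibers and heart, was at 7.12 RPKM in rhesus_950807, against 24.1, 149, 12.8 and 22.9 RPKM. For these genes and for *CASQ2* rhesus_940129 was the highest and rhesus_950807 the lowest library, while the order of the other controls differed.

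Of the 10 slow fiber markers listed, 8 were tested in muscle and had a median log2 difference of -3.88, all of them negative. Without rhesus_940129 the median was -2.55 and the difference of *ATP2A2* was -1.68, against -3.03 with all 4 controls. All 8 had an unadjusted p under 0.05, with *MYH7* at -3.98 (SE 1.44) and *TNNC1*, slow troponin C, at -3.76 (SE 1.39), but none was called by edgeR (adjusted p = 0.496 and 0.497). The summed RPKM of the slow markers was 119 in rhesus_950807, against 504 to 4671 in the controls, and that of 10 fast fiber markers was 58730, against 40293 to 63487. The fast markers had a median of 0.07, and the median of 7 general myofiber markers was 0.07. The part of the slow markers' lower level in the *CASQ2* value was not tested. The plot of *CASQ2* beside these genes shows the same ends of the order and a smaller range for *CASQ2*.

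**Figure D3:**
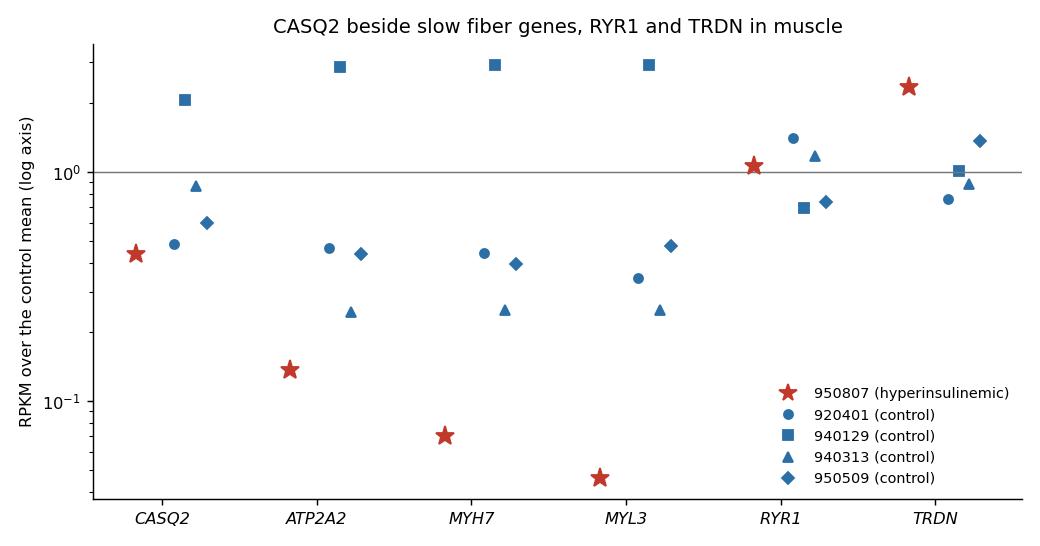
RPKM in muscle divided by the mean of the 4 controls, on a log axis, for *CASQ2*, the slow fiber genes *ATP2A2*, *MYH7* and *MYL3*, and *RYR1* and *TRDN*, with rhesus_950807 as a star and each control with its own symbol. Animal rhesus_950807 is lowest and rhesus_940129 highest in *CASQ2* and in the 3 slow fiber genes, but not in *RYR1* or *TRDN*.

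Markers of other cell types were compared in the same muscle libraries. Of 10 smooth muscle and pericyte markers, 1 of which, *DES*, is also a myofiber marker, all were negative with a median of -1.14 and 6 had an unadjusted p under 0.05. Adipocyte and macrophage markers had medians of -0.86 over 9 genes and -1.06 over 5 genes. No gene of these lists was called by edgeR. Of 8 listed cardiac markers only 4 were found by name. These 4 were near 0 in every muscle library, with a summed RPKM of 0.0154 in rhesus_950807 and 0.160 to 0.718 in the controls.

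Between the tissues of the control animals the coupling genes were higher in muscle without exception. All 8 members were called by edgeR (adjusted p under 0.05 and a log2 difference of at least 1), where 22.0% of the 11173 genes tested were called higher in muscle. Their median log2 difference was 10.17, against -0.23 for all genes, and it ranged from 6.03 in limma on log2(RPKM + 1) to 12.59 without the adipose libraries from rhesus_920401 and rhesus_940313, where 4 members have fitted values against 0 reads. Every member had a control adipose mean under 1 RPKM and so passed the filter only through muscle, and without a filter 8 were called as well. The split of calls moved with the scale. With TMM 2459 of 5767 called genes were higher in muscle, and with scaling to the mapped totals 799 of 7839 were, as the median of all genes moved to -1.61. All 8 members were still called on that scale, with *CASQ2* at 2.02.

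*JSRP1* had a log2 difference of 11.38 (SE 0.63, edgeR adjusted p = 1.05e-07) and *CACNA1S* of 10.85 (SE 1.07, adjusted p = 6.31e-06). *RYR1* differed by 10.45 (SE 0.78, adjusted p = 7.62e-07), *CACNG1* by 9.89 (SE 0.77, adjusted p = 1.09e-06) and *TRDN* by 9.54 (SE 0.91, adjusted p = 5.06e-06). *CACNB1* differed by 8.75 (SE 0.51, adjusted p = 1.47e-07) and *CASQ2*, the least tissue-restricted member, by 3.36 (SE 0.54, adjusted p = 0.000244). These sizes moved when the adipose libraries with the most *ACTA1*, those of rhesus_920401 and rhesus_940313, were set aside. Without them *RYR1* differed by 11.76 and *TRDN* by 12.31 on the log2 scale and *CACNB1* by 9.30, and leaving out rhesus_920401 alone gave 12.18 for *CACNA1S*, 12.14 for *JSRP1* and 10.89 for *TRDN*.

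The adipose reads of the members were few and fell mostly in those libraries. *CACNA1S* had 0 reads in the adipose tissue of rhesus_950807, against 43, 0, 14 and 0 reads in rhesus_920401, rhesus_940129, rhesus_940313 and rhesus_950509. *CACNG1* had 0 reads in rhesus_950807, against 16, 0, 12 and 0 reads, and *JSRP1* had 0 reads, against 7, 0, 5 and 0 reads. Reads of these genes were thus confined, among the 5 adipose libraries, to the pair with the most *ACTA1*. A count of 0 allows up to 3 reads, by which *CACNA1S* was at least 6748-fold higher in control muscle than in the adipose tissue of rhesus_940129 and rhesus_950509 together, *CACNG1* at least 1728-fold and *JSRP1* at least 2156-fold higher, all as RPKM and for counting error only.

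*SLC8A3* had 0 reads in the adipose tissue of rhesus_950807 and of every control. Over the 4 control libraries together this puts its level in muscle (3.20 ± 1.44 RPKM, SD, n = 4) at least 793-fold higher. *TRDN* had 3 reads in the adipose tissue of rhesus_950807, against 60, 0, 21 and 6 reads in the controls, again highest in rhesus_920401 and rhesus_940313.

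*RYR1* and *CACNB1* differed from this pattern in that every adipose library held reads of them. *RYR1* was at 0.390 RPKM in the adipose tissue of rhesus_950807, against 1.23, 0.287, 0.516 and 0.132 RPKM in rhesus_920401, rhesus_940129, rhesus_940313 and rhesus_950509. *CACNB1* was at 0.506 RPKM in rhesus_950807, against 1.26, 0.521, 0.675 and 0.434 RPKM. Both were highest in rhesus_920401, next highest in rhesus_940313 and lowest in rhesus_950509. *RYR1* followed the same order of libraries as *ACTA1*, but over a far smaller range. In rhesus_950807 the adipose level was 0.131% of the muscle level for *RYR1* and 0.368% for *CACNB1*, against 0.00505% for *ACTA1*. In rhesus_940129 and rhesus_950509 the shares were 0.147% and 0.0635% for *RYR1* and 0.721% and 0.438% for *CACNB1*, against 0.00374% and 0.00182% for *ACTA1*. In rhesus_940313 they were 0.157% for *RYR1* and 0.362% for *CACNB1*, against 0.270% for *ACTA1*. In rhesus_920401 the share was 0.312% for *RYR1*, close to the 0.343% of *ACTA1*, and 1.12% for *CACNB1*.

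*CASQ2* was the member with the most even division between tissues. It was at 0.557 RPKM in the adipose tissue of rhesus_950807, against 0.394, 0.792, 0.666 and 0.249 RPKM in the controls, with 69 reads and 29 to 76 reads. Its adipose level was 59.7% of the muscle level in rhesus_950807 and 18% to 38.2% in the controls. Its highest adipose level was that of rhesus_940129, and its tissue difference remained 3.36 without the adipose libraries from rhesus_920401 and rhesus_940313. In limma on log2(RPKM + 1) the difference was 0.94 and fell short of the size threshold of 1. The plot of adipose levels as a share of muscle levels places *CASQ2* and *CACNB1* above its myofiber genes in every animal. *RYR1* lay above those genes in rhesus_950807, rhesus_940129 and rhesus_950509, but below them in rhesus_920401 and rhesus_940313.

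**Figure D4:**
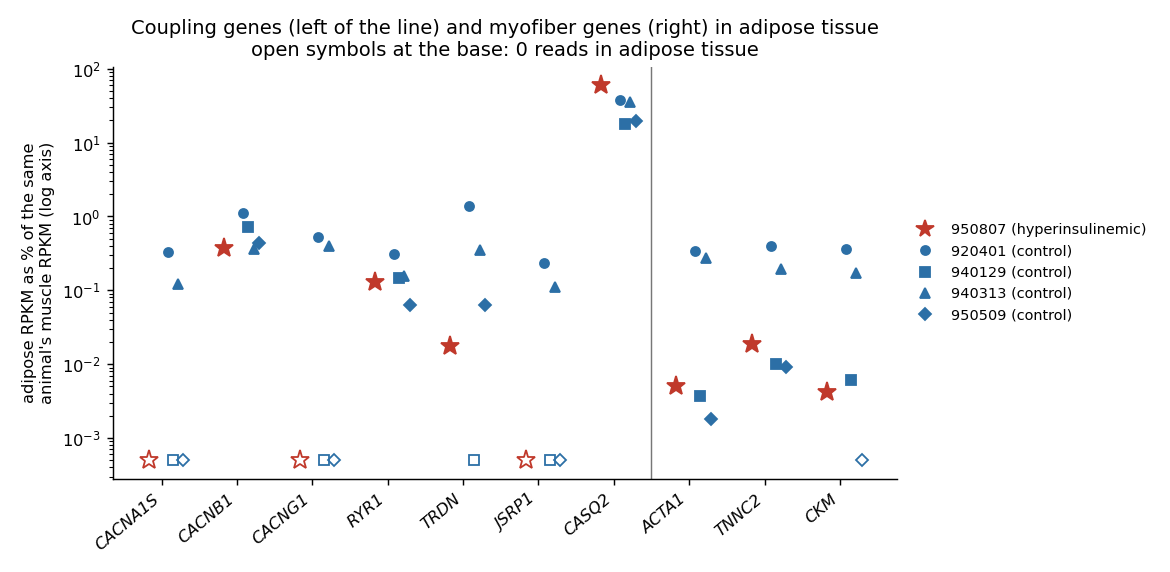
Adipose RPKM as a percentage of the same animal's muscle RPKM, on a log axis, for 7 coupling genes and the myofiber genes *ACTA1*, *TNNC2* and *CKM*, with rhesus_950807 as a star, each control with its own symbol and libraries without reads as open symbols at the base. The myofiber genes are high only in rhesus_920401 and rhesus_940313, whereas *CASQ2* lies between 18% and 59.7% in all 5 animals and *CACNB1* between 0.362% and 1.12%.

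For the comparison of rhesus_950807 with the controls in adipose tissue no member reached a mean of 1 RPKM, so none entered the edgeR fit, in which 0% of 11981 genes were called (286 had an unadjusted p under 0.05, and DESeq2 called 11). An exact permutation test of each member's RPKM, two-sided, gave p values from 0.6 to 1, where 1 animal against 4 cannot give a p below 0.2. The value of rhesus_950807 lay within the control range in all 8, including those at 0. For the same reason no member could be tested for a difference between its effects in the tissues, where 0% of 7938 genes were called by edgeR (425 had an unadjusted p under 0.05, and DESeq2 called 16).

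The members were also compared with the other isoforms of their families. *RYR1* made up 99.9% of the summed RPKM of *RYR1*, *RYR2* and *RYR3* in the muscle of rhesus_950807 and 99.8% to 100% in control muscle. In adipose tissue it was 76.7% in rhesus_950807 and 63.8% to 95.6% in the controls, where *RYR2*, the cardiac channel, was at 0.0899 RPKM in rhesus_950807 and 0.0368 to 0.0751 RPKM in the controls. By reads, which favor the long *RYR2* row over the short *RYR1* row, the adipose share of *RYR1* was 41.7% in rhesus_950807 and 56.0% ± 24.1 in the controls (SD, n = 4).

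*CACNA1S* likewise held 100% of the summed RPKM of the L-type subunits *CACNA1S*, *CACNA1C* and *CACNA1D* in the muscle of rhesus_950807 and 99.7% to 100% in control muscle. *CACNA1C*, the L-type channel of heart, smooth muscle and beta cells, had 0 reads in the muscle of rhesus_950807 and 0 to 20 reads in control muscle. In adipose tissue *CACNA1C* was the main one, at 0.578 RPKM in rhesus_950807 and 0.380, 0.261, 0.223 and 0.452 RPKM in the controls. It was above every control there, but under the filter, and the exact permutation p of 0.2 is the smallest this design can give. This position was not particular to *CACNA1C*. Of the other isoforms compared, *CACNB2*, *CACNB3*, *RYR2*, *RYR3* and *SLC8A1* were above every control in adipose tissue as well. The rest, *CACNA1D*, *CACNB4*, *CACNG6*, *CACNG7* and *SLC8A2*, lay within the control range.

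Among the beta subunits *CACNB1* took 99.5% of the summed RPKM in the muscle of rhesus_950807 and 96.0% to 99.4% in control muscle, while *CACNB3* took 90.8% in the adipose tissue of rhesus_950807 and 80.1% to 93.0% in control adipose tissue. *CACNB3* was at 0.612 RPKM in the muscle of rhesus_950807, against 1.32, 2.89, 1.08 and 2.77 RPKM in the controls, below them all. In adipose tissue it was at 11.4 RPKM in rhesus_950807, against 6.58, 7.99, 5.57 and 4.42 RPKM, above them all. The log2 differences were -1.90 (SE 0.73, edgeR adjusted p = 0.498) in muscle and 0.69 (SE 0.45, adjusted p = 1.0) in adipose tissue. Their difference of -2.65 (SE 0.81) had an unadjusted p of 0.00614 and an edgeR adjusted p of 0.824, so that it was not called.

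*SLC8A3* took 96.5% of the summed RPKM of the *SLC8A* exchangers in the muscle of rhesus_950807 and 94.2% to 99.3% in control muscle, and 0% in adipose tissue. There *SLC8A1*, the exchanger known from heart, took 89.0% in rhesus_950807 and 81.4% to 94.6% in the controls, at 2.08 RPKM in rhesus_950807 and 1.34, 1.37, 1.55 and 1.81 RPKM in the controls. *CACNG6*, a gamma subunit close to *CACNG1*, was at 15.3 RPKM in the muscle of rhesus_950807 and 14.5, 9.50, 25.8 and 11.8 RPKM in the controls (log2 difference -0.17, SE 0.51, edgeR adjusted p = 0.948). The plot of isoforms shows which isoform leads in each tissue within the channel and exchanger families.

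**Figure D5:**
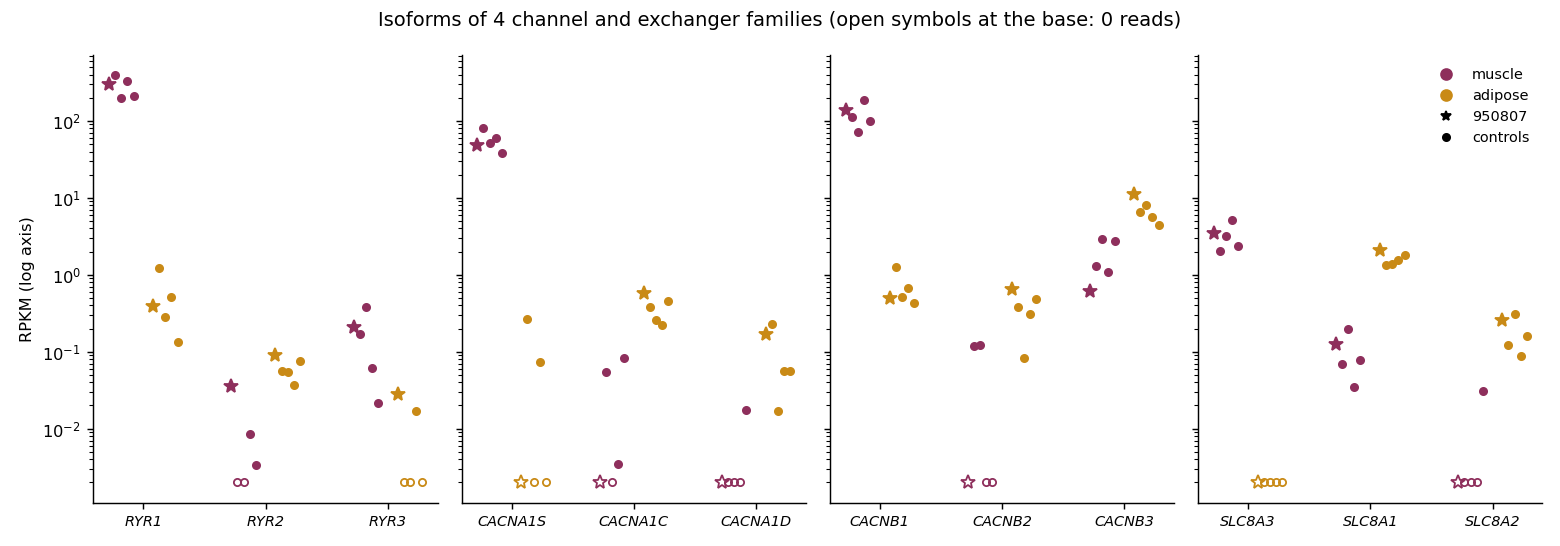
RPKM of isoforms of the ryanodine receptors, the L-type channel subunits, the beta subunits and the sodium-calcium exchangers on a log axis, in muscle and adipose tissue, with rhesus_950807 as stars, controls as circles and libraries without reads as open symbols at the base. *CACNB3* and *SLC8A1* are the leading isoforms in adipose tissue and *CACNB1* and *SLC8A3* in muscle.

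Of 35 listed partners of the coupling complex, 21 were in the files under a usable name and 20 were tested in muscle. None was called in rhesus_950807 by edgeR, 2 had an unadjusted p under 0.05, 12 were positive and the median was 0.06. Their smallest p values belonged to *CAMK2B*, a calcium-dependent kinase subunit, at 67.5 RPKM in rhesus_950807 and 32.9 to 46.6 RPKM in the controls (log2 difference 0.60, SE 0.24, adjusted p = 0.511), and to *ATP2A2* (-3.03, SE 1.31, adjusted p = 0.542). *DYSF*, the membrane repair protein dysferlin, was at 49.5 RPKM, against 24.6 to 34.3 RPKM (0.59, SE 0.27, adjusted p = 0.560). *TMEM38B*, a potassium channel of the reticulum, was at 4.37 RPKM, against 1.97 to 3.04 RPKM (0.70, SE 0.38, adjusted p = 0.615). *STAC3*, which the voltage sensor of muscle needs to reach the membrane and work, was at 378 RPKM in rhesus_950807 and 211 to 442 RPKM in the controls, inside their range.

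Of 16 listed genes of calcium entry, endoplasmic release and extrusion, 7 were tested in muscle, none was called by edgeR, 1 had an unadjusted p under 0.05 and the median was 0.14. *ATP2B1*, a plasma membrane calcium pump, was at 3.41 RPKM in rhesus_950807, against 1.01, 1.83, 1.05 and 1.37 RPKM in the controls, above them all (log2 difference 1.2, SE 0.37, unadjusted p = 0.00937, edgeR adjusted p = 0.482). *ATP2B4*, another such pump, was at 1.56 RPKM in rhesus_950807 and 1.75 to 4.05 RPKM in the controls (-1.06, SE 0.51, adjusted p = 0.589). *SARAF*, which restrains store-operated calcium entry, had a log2 difference of 0.40 (SE 0.28, adjusted p = 0.702). *ORAI1*, the pore of store-operated entry, had one of -0.41 (SE 0.29, adjusted p = 0.707).

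Between the tissues of the controls 16 of 20 partners were called higher in muscle and 1 lower, against 22.0% and 29.6% of all genes, with a median of 4.92. Some partners, among them *CAMK2B* and *SPEG*, had a control adipose mean under 1 RPKM and so passed the filter only through muscle. The count is thus not independent of the filter. *CAMK2B* was at 39.7 ± 5.67 RPKM in control muscle and 0.134 ± 0.132 RPKM in control adipose tissue (log2 difference 9.58, SE 0.64), and *STAC3* at 323 ± 94.3 and 2.31 ± 1.17 RPKM (8.52, SE 0.51). *SPEG*, a kinase of the triad, was at 52.7 ± 20.7 and 0.566 ± 0.140 RPKM (7.91, SE 0.46), and *DYSF* at 29.3 ± 5.10 and 3.40 ± 0.754 RPKM (4.49, SE 0.27; SD and n = 4 for each, edgeR adjusted p from 1.31e-07 to 3.30e-07). Without the adipose libraries from rhesus_920401 and rhesus_940313 the differences of *CAMK2B* and *STAC3* were 12.08 and 9.13. The partner called lower was *ASPH*, whose gene gives both junctin and an enzyme, forms that counts per gene do not separate (-4.22, SE 0.38, adjusted p = 3.21e-06).

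Among the calcium entry genes 12 were tested between the tissues, of which 2 were called higher in muscle and 5 lower, where 22.0% and 29.6% of all genes were. Their median was -0.78 with TMM and -2.16 with mapped totals. *ORAI1* was higher by 4.70 (SE 0.26, edgeR adjusted p = 1.05e-07) and *STIM1*, its reticular calcium sensor, by 2.63 (SE 0.25, adjusted p = 4.38e-06). *ITPR2*, an inositol trisphosphate receptor, was lower in muscle, at -4.61 (SE 0.43, adjusted p = 4.16e-06), and *ATP2B4* at -2.22 (SE 0.29, adjusted p = 5.02e-05). With a control muscle mean of 0.0651 RPKM, *ITPR2* passed the filter only through adipose tissue, as did some others of this list.

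In adipose tissue 12 partners and 13 calcium entry genes were tested for rhesus_950807, and none was called by edgeR. *STAC3* and *CACNA2D1*, a channel subunit, differed by 1.10 (SE 0.68) and 1.49 (SE 0.93), and *ATP2A1*, the calcium pump of fast fibers, by -5.32 (SE 2.95), with 0.316 RPKM in rhesus_950807, against 28.7, 0.243, 16.6 and 0.0210 RPKM in the controls. Animal rhesus_950807 thus lay within the control range of *ATP2A1*, and the difference was -1.95 in limma on log2(RPKM + 1). Without the adipose libraries from rhesus_920401 and rhesus_940313 that of *STAC3* was 1.72. *ITPR2* was at 1.87 RPKM in rhesus_950807, below the 3.60, 2.96, 2.99 and 6.94 RPKM of the controls (-1.32, SE 0.58, unadjusted p = 0.0446, adjusted p = 1.0). *ITPR1*, *ORAI2* and *CALR*, the reticular chaperone calreticulin, differed by 0.63, 0.54 and 0.39. For the effect in muscle minus that in adipose tissue, 12 partners and 7 calcium entry genes were tested and none was called by edgeR. Partners with small p values included *ATP2A2* (-3.22, SE 1.39), *DYSF* (0.89, SE 0.49) and *S100A1*, a calcium-binding protein (1.26, SE 0.74), with adjusted p of 0.905 to 0.951. Among the calcium entry genes the smallest p values were those of *ATP2B4* (-1.37, SE 0.63), *ATP2B1* (1.18, SE 0.71), *ORAI1* (-0.59, SE 0.48) and *SARAF* (0.45, SE 0.48).

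As a description, the genes whose log2(RPKM + 0.1) followed the members' mean most closely over the 10 libraries were *MYH4*, a fast myosin heavy chain, with a Pearson r of 0.999, *MYPN*, a Z-disc protein, with 0.999 and *HOXC10*, a homeobox gene, with 0.998. These points are 5 muscle and 5 adipose libraries, so the coefficient mainly reflects the gap between tissues. For *CASQ2* the closest were *SDHB*, a subunit of mitochondrial complex II, with 0.906, *MYL3* with 0.902 and *WDR62* with 0.889.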

How the data were processed

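Skeletal muscle and adipose tissue of 5 monkeys were measured by poly(A), strand-specific RNA-Seq. The authors mapped reads with TopHat (1.2.0 per the submitters' processing notes, the paper naming another release) and deposited read counts per gene for 28595 Ensembl macaque genes. The authors also deposited RPKM values, and each value was recomputed from its reads, transcript length and library total without a mismatch. Not given in the sources used here are the build, the annotation release and how reads were counted. Gene coordinates are those of the files, with starts counted from 1. Symbols came from an Ensembl name table and were found for 15556 genes (54.4%). Of 13297 symbols compared, 144 (1.08%) lay on another chromosome in a RefSeq table of the later assembly T2T-MMU8v2.0. The 8 members lay on the same one. Rows named *JPH2* and *FABP4* were not used, since neither their chromosome nor their neighbors matched.

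Counts were scaled by TMM and tested, two-sided, with edgeR 4.0.16 (quasi-likelihood, R 4.3.3), with Benjamini-Hochberg adjustment over every gene whose mean across the compared libraries reached 1 RPKM. A call needs an adjusted p under 0.05, and between control muscle and control adipose tissue also a log2 difference of 1 or more in size. The fit gives the single hyperinsulinemic animal the spread of the controls, and p-values measure the spread between 4 control animals with 1 library per tissue each. Members under the filter were compared by exact permutation, and a count of 0 was taken to allow 3 reads.

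Genes named are all members and their paralogs, up to 4 partners and 4 calcium entry genes with the smallest p in each comparison, and examples of the marker lists. *CHRNA1*, *MYH7*, *MYL3* and *ASPH*, and the muscle values of *STAC3*, were added after their values were seen. One gene that this rule selects is not reported here. The members and lists were chosen with earlier results of these data known. Alternatives were DESeq2 1.42.0, limma 3.58.1 on log2(RPKM + 1) or log2(RPKM + 0.1), other scalings and filters, leaving out libraries, fitting all 10 libraries, and a block for the animal. The fits were also run on simulated data with known changes, whose recovery rates are not reported here. Muscle and adipose libraries of an animal are paired by origin, yet the deviations of the 4 controls' libraries from the group means were correlated by only -0.171 to 0.162 across 11173 genes.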

Additional observations from a re-analysis of the deposited data

How the results depend on the processing

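No member was called in the muscle of rhesus_950807 under any of 12 alternatives. The number of all genes called in muscle, 0 with edgeR, was 1 with median-of-ratios scaling, 3 with mapped totals, 88 with DESeq2, 1 with either limma fit, 10 without the filter and 0 to 14 when each control was left out (14 without rhesus_940313). In adipose tissue it was 11 with DESeq2, 0 to 6 when each control was left out (6 without rhesus_920401) and 33 without the adipose libraries of rhesus_920401 and rhesus_940313, and for the difference between tissues it was 16 with DESeq2. Between the tissues 3325 genes were called with a filter at 5 RPKM, which tests fewer genes, and 5063 to 6085 when each control was left out.

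Members whose difference in muscle was near 0 changed sign, and the cause was not tested. *RYR1* was 0.082 with mapped totals and 0.14 and 0.15 in limma with pseudocounts of 1 and 0.1, and ranged from -0.23 to 0.10 when each control was left out. *SLC8A3* was 0.13, 0.16 and 0.22 in those fits and -0.22 to 0.26 without 1 control. *CACNB1* ranged from -0.12 to 0.32 and *CACNG1* from -0.038 to 0.16 without 1 control. *CACNG6* was 0.082 and 0.092 in limma and -0.35 to 0.14 without 1 control. *CACNA1S*, *CASQ2*, *TRDN* and *JSRP1* kept their sign under every alternative that tested them. The median of all genes in muscle was 0.14 with mapped totals, against -0.03 with TMM, and that of the members 0.18, against 0.02.

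Between the tissues all 8 members were called under each alternative that tested them, except *CASQ2* in limma with a pseudocount of 1. *CASQ2* and *SLC8A3* fell under the filter at 5 RPKM, and *CASQ2* also without rhesus_940129. A paired fit with the animal as a replicate block called 5712 genes between the tissues and the same 8 members, and 0 genes for the difference between tissues, and changed no other call named. Shares of *CASQ2* and *JPH1* in their families were planned and not run, as *CASQ1* and *JPH1* were not matched. At 94 to 465 reads in muscle *CASQ2* is the member that counting limits most.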
